A study of Ciona robusta with 6 samples.

Results

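Among the gene models of Ciona robusta, 49 were modestly lower in embryos whose Brachyury gene had been targeted with Cas9 than in their controls. They were chosen by the measured difference itself, so that difference is described below and not tested. A gene model entered the choice with a normalised count of at least 10 in at least 3 of the 6 libraries, which 11953 of the 15284 models in the table had. Within each of the 3 replicate numbers the log2 of the Brachyury-guide value plus 1 was set against the same quantity in the control, and a member had a difference of -0.4 or lower in all 3 numbers without reaching -0.8 in all 3. The 32 models at -0.8 or lower in all 3 numbers are not members. KH.S1404.1, KH.C11.313 and KH.L128.12 were left out by name, and none of them met the limits. The table gives identifiers of the KH2012 gene model set and no names. Of these identifiers, 0 matched the RefSeq gene table used here, so the members have no gene name, function, position or sequence below.

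The RNA came from pooled whole embryos at Hotta stage 14, a neurula stage, in 2 groups of 3 libraries. CrBra embryos developed from eggs injected before fertilization with Cas9 protein, tracrRNA and a crRNA against Brachyury. CrGFP embryos, the controls, received the same mix with a crRNA against GFP, which is not a gene of the animal, so both groups carried Cas9 and an injection. Replicates are biological per the design text, and libraries were numbered 1 to 3 in each group.

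Brachyury is a T-box transcription factor. In ascidians it is switched on in the precursors of the notochord, the rod of cells along the midline of the tail, and it activates genes with which these cells change shape, intercalate and build their sheath. The notochord is a small part of the neurula, which also holds epidermis, tail muscle, endoderm, nervous system and mesenchyme. RNA of the whole embryo sums over all of them, so fewer cells of a type and less RNA per cell cannot be told apart in any value below.

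The 6 libraries held 13191537 to 16094085 reads. The normalised count is the authors' own scaling of those reads, with a single factor for each library, and 1 read was worth 0.847 to 1.12 units. Libraries of the same number deviated together, with correlations of 0.824 to 0.876 between the CrGFP and CrBra deviations from their group means. Between different numbers the correlations were -0.569 to -0.296. Deviations from a group mean cancel within the group, so high same-number values push those between different numbers towards negative values. KH.S1404.1, taken as Brachyury from general knowledge and not from the table, stood at 950, 582 and 1058 in CrGFP 1, 2 and 3 and at 298, 205 and 313 in the CrBra libraries. All CrBra values of this model lay below all of its CrGFP values.

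The members fell in 2 ranges of expression. By the mean over all 6 libraries, 19 of the 49 had a normalised count of 100 or more and 30 lay under 100. The 19 held 95.7% of the members' summed mean values. The median member had a mean of 44.0, against 422 for the median of all tested models and 98.6 for the 32 models past -0.8. Of the members, 61.2% lay under 100, where 24.6% of all tested models lay. The members' share of all normalised counts was 0.178% ± 0.017 (SD, n = 3) in the controls and 0.108% ± 0.016 (SD, n = 3) in CrBra, a difference that the choice of members fixes.

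**Figure D1:**
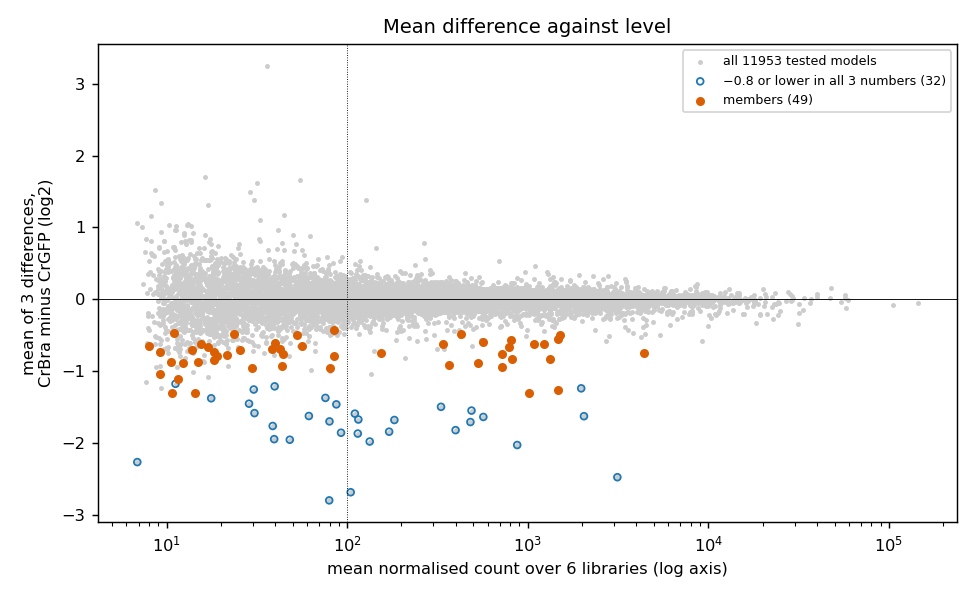
Mean of the 3 differences between CrBra and CrGFP (log2, vertical axis) against the mean normalised count over 6 libraries (log axis) for all 11953 tested models (grey), the 49 members (filled) and the 32 models at -0.8 or lower in all 3 numbers (open circles). The spread of the grey points narrows with level, and the dotted line marks 100, above which 19 members lie apart from most of the grey points.

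How often the same sizes of difference occurred in other combinations of direction depended on the level. Over all levels, 81 models (0.678% of those tested) were lower by at least 0.4 in all 3 numbers and 32 were higher by at least 0.4 in all 3. The 6 mixed combinations, lower in some numbers and higher in others by at least 0.4, held 17 to 27 models each. Those that were lower in 2 numbers and higher in 1 are the models that the limit of -0.4 would return if the guide labels of that 1 number were exchanged, and they numbered 17, 27 and 21 for numbers 3, 2 and 1. Among models with a mean of 100 or more the picture was different. There, 24 models from 100 to under 1000 and 11 models of 1000 and over were lower in all 3 numbers, 1 model was higher in all 3, and the mixed combinations held 2 models in all. Below 100, 46 models were lower in all 3 numbers, 31 were higher in all 3, and each mixed combination held 16 to 27.

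Counted with both limits, 26 models met the mirrored rule, higher by at least 0.4 in all 3 numbers and not by 0.8 in all 3. Of these, 25 had a mean under 100, beside 30 members there, and 1 had a mean of 100 or more, beside 19 members. The members with a mean under 100 are about as many as the models with the mirrored difference at that level. These counts describe these 6 libraries, and no test was made of them.

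**Figure D2:**
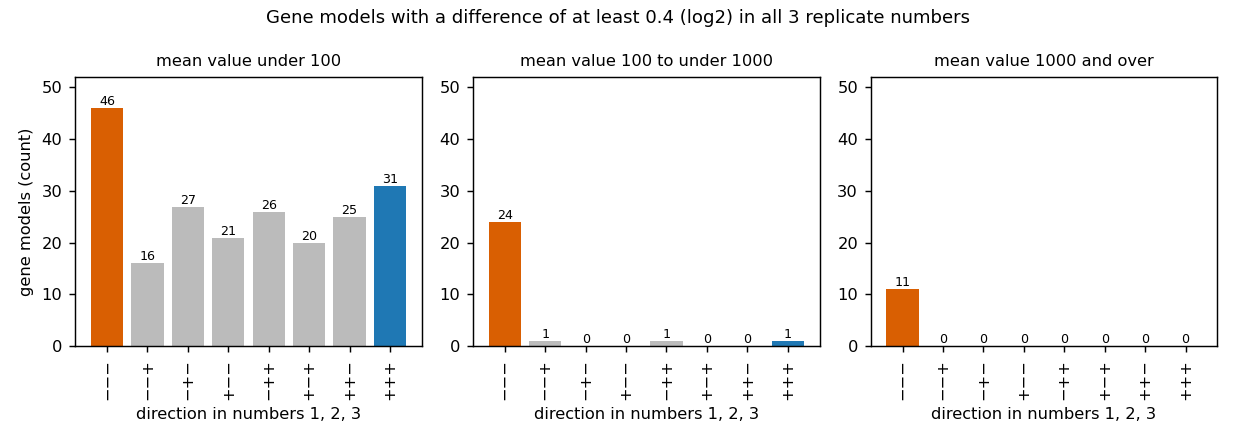
Number of gene models (vertical axis) whose difference was at least 0.4 (log2) in size in all 3 replicate numbers, by direction in numbers 1, 2 and 3 (minus for lower and plus for higher in CrBra), in 3 classes of mean normalised count. Under 100 the bar for lower in all 3 numbers stands at 46 beside 31 for higher in all 3, and in the higher classes it stands at 24 and 11 beside 1 and 0.

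The most abundant member was KH.C6.164. Its normalised counts were 5142, 6516 and 4685 in CrGFP 1, 2 and 3 and 2342, 4725 and 2961 in CrBra 1, 2 and 3. The CrBra libraries kept 45.6%, 72.5% and 63.2% of their controls, but CrBra 2 lay above CrGFP 3, so the groups overlapped. KH.C9.698 followed with 1025, 2335 and 1880 in CrGFP and 666, 1756 and 1370 in CrBra. Here number 1 was low under both guides, and the CrBra value of number 2 exceeded the CrGFP value of number 1. KH.S643.6 had 2241, 1597 and 1402 in CrGFP against 1516, 1172 and 888 in CrBra. In this model number 1 was the highest under both guides and the groups overlapped again. KH.C7.261 stood at 1686, 2712 and 1676 in CrGFP and at 430, 1315 and 984 in CrBra. Its 3 CrBra values lay below all 3 CrGFP values, and CrBra 1 kept 25.5% of its control, the lowest share in that model.

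The remaining members with a mean of 1000 or more were KH.C3.225, KH.L18.22, KH.C4.671 and KH.S1075.1. KH.C3.225 had 1464, 2308 and 1215 in CrGFP and 548, 1605 and 832 in CrBra, with overlapping groups and the highest values in number 2. KH.L18.22 had 1650, 1178 and 1658 in CrGFP and 1001, 872 and 999.67 in CrBra. Its groups were separate, and CrBra was the more even of them, with 957 ± 74.2 (SD, n = 3). KH.C4.671 was likewise separate, at 1370, 1391 and 1174 in CrGFP and 738, 956 and 873 in CrBra. KH.S1075.1 had 1873, 1057 and 1152 in CrGFP and 1220, 565 and 215 in CrBra. It was the most uneven of the 49, with differences of -0.62, -0.90 and -2.42 in numbers 1, 2 and 3, and its CrBra values ranged more widely than its CrGFP values. Of the 8 members at 1000 and over, 3 had separate groups, as 0.788% of all models of that level did with CrBra the lower.

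A mean from 100 to under 1000 was found in 11 members, and the groups did not overlap in 6 of them (CrBra lay wholly below CrGFP in 0.972% of all models of that level). KH.C9.49 had 744, 1233 and 924 in CrGFP and 497, 738 and 579 in CrBra. KH.C8.582 had 1038, 754 and 901 in CrGFP and 649, 386 and 578 in CrBra. KH.C7.269 had 1016, 946 and 859.94 in CrGFP and 426, 614 and 438 in CrBra. In these models every CrBra library lay below every control. The same was true of KH.C10.17, with 573, 453 and 463 in CrGFP and 378, 340.46 and 339 in CrBra. KH.L20.49 stood at 492, 547 and 399.95 in CrGFP and at 199.83, 301 and 263 in CrBra. KH.C6.76, the lowest of the class, had 265, 142 and 173 in CrGFP and 139.71, 81.5 and 121 in CrBra, with all CrBra values below the lowest control.

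In the other 5 members of that class the spread between numbers carried CrBra values of one number above CrGFP values of another. KH.C12.115 had 1354, 686 and 1117 in CrGFP and 717, 402 and 639.5 in CrBra, with number 2 low under both guides. KH.C13.35 had 516, 1390 and 958 in CrGFP and 301, 1009 and 682 in CrBra, so that CrBra 2 exceeded CrGFP 1 and CrGFP 3. KH.C7.484 had 1042, 457 and 571 in CrGFP and 561, 340.46 and 411 in CrBra. Number 1 was highest there under both guides. KH.C8.891 had 629.77, 1208 and 288 in CrGFP and 372, 479 and 194 in CrBra, and CrGFP 3 lay below CrBra 1 and CrBra 2. KH.C1.143 had 278, 558 and 395 in CrGFP and 160.04, 361 and 284 in CrBra.

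**Figure D3:**
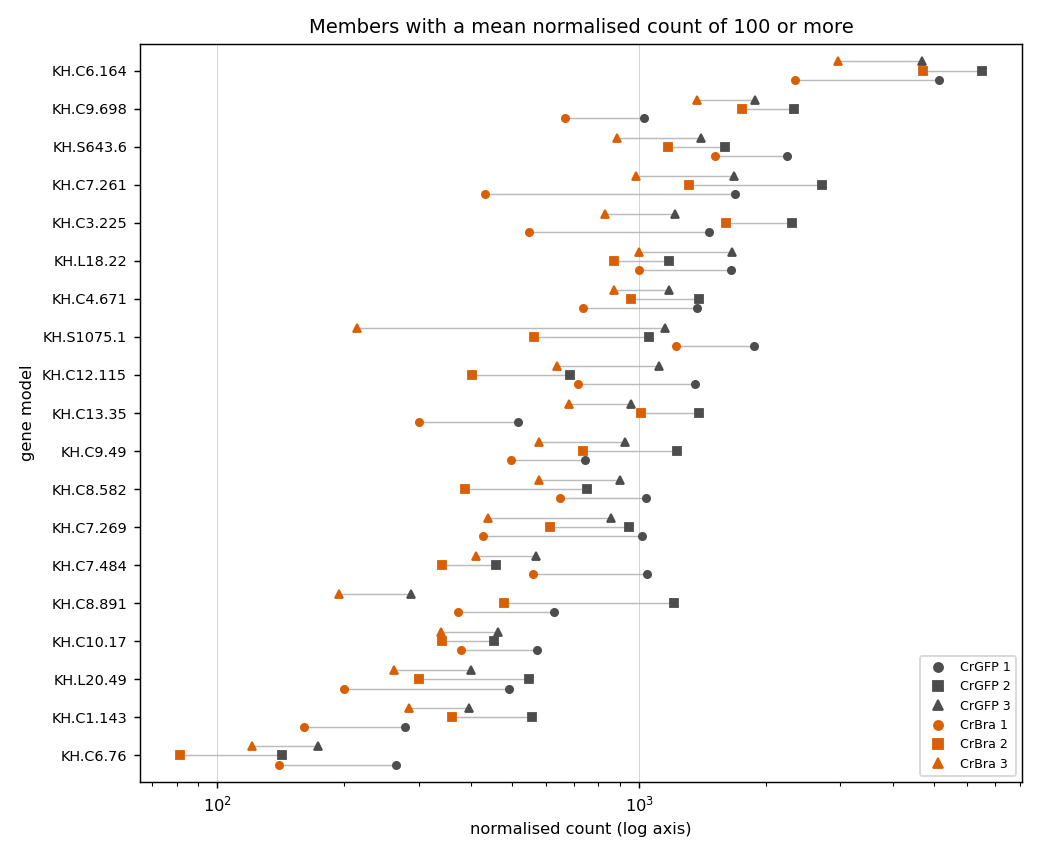
Normalised count (log axis) in each of the 6 libraries for the 19 members with a mean of 100 or more, with CrGFP in grey, CrBra in orange, the replicate number by symbol and a line joining the libraries of the same number. Each line runs from the control down to CrBra as the choice requires, 9 of the 19 models have CrBra values that lie below every control value, and the lines of a model are often shifted against each other by number.

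Over the 19 models with a mean of 100 or more, the CrBra libraries kept 18.7% to 75.2% of the control of the same number, with a median of 63.2%. The lowest share was that of KH.S1075.1 in CrBra 3. The 3 differences of a model were within 0.2 (log2) of each other in KH.C12.115, KH.C9.49 and KH.C10.17, which had ranges of 0.15, 0.16 and 0.18. For KH.C12.115 the differences were -0.92, -0.77 and -0.80, and for KH.C9.49 they were -0.58, -0.74 and -0.67. KH.C9.698, with a range of 0.21, was the next most even. Counting error was small at this level: in all 19 models the exact 95% interval of the CrBra to CrGFP ratio, from the recovered reads, lay below 1 in each of the 3 numbers. Such intervals cover counting error only and not the spread between embryos. They use the same ratios that chose the members, so at this level the choice largely fixes them. They are a description, and no share over all tested models was counted.

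The 30 members with a mean under 100 rested on few reads, from 1 to 162 per library. Their counting intervals lay below 1 in all 3 numbers in 3 models, in 2 numbers in 6 models, in 1 number in 10 and in none in 11. The 3 were KH.L96.83, KH.C12.39 and KH.C3.724. KH.L96.83 had 141, 46 and 138 reads in CrGFP and 67, 25 and 74 in CrBra. KH.C12.39 had 76, 86 and 41 reads in CrGFP and 60, 55 and 21 in CrBra, and KH.C3.724 had 40, 53 and 78 against 22, 28 and 38. In none of these 3 models were the groups separate, since number 2 was lowest under both guides in the first, number 3 in the second and number 1 in the third. In reads the groups of KH.C3.724 are separate, and they overlap only after scaling, with CrBra 3 at 38.88 and CrGFP 1 at 38.76.

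Several of the largest mean differences came from the lowest counts. A mean difference of -1 or lower was reached by 6 members, and 4 of them had a mean under 100. KH.C7.487 had 27, 20 and 16 reads in CrGFP and 7, 6 and 11 in CrBra, which gave differences of -1.97, -1.47 and -0.50. KH.C12.58 had 21, 10 and 17 reads against 6, 5 and 6. Both had separate groups and counting intervals below 1 in 2 of 3 numbers. KH.C9.753 had 7, 14 and 14 reads in CrGFP and 1, 9 and 9 in CrBra. Its difference in number 1, -2.08, rested on that 1 read, and the interval in number 1 ran from -8.50 to -0.04 on the log2 scale. In 6 of the 49 members at least 1 CrBra library held 3 reads or fewer, and in no member did a library hold 0. In 3 of the 49 members, and in 6 of all tested models, every CrBra value was under 10, so that they passed the filter on low values through their controls alone and had to be lower in CrBra.

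The groups were separate, with all CrBra values below all CrGFP values, in 9 of the 30 members with a mean under 100 and in 1.87% of all tested models of that level. For KH.C12.58, KH.L96.34 and KH.C3.435, which passed the filter through their controls alone, the filter itself fixed this. The best covered of the 9 were KH.C8.59, with 38, 58 and 48 reads in CrGFP and 27, 32 and 34 in CrBra, and KH.C2.983, with 39, 64 and 40 against 29, 31 and 26. KH.C14.30 had 49, 37 and 33 reads in CrGFP and 33, 13 and 18 in CrBra, and KH.C12.662 had 26, 25 and 45 against 22, 15 and 20. In reads, CrBra 1 of KH.C14.30 equals CrGFP 3, and its values are separate only after scaling, since 1 read of CrBra 1 was worth less. The other 5 were KH.C7.487, KH.C12.58, KH.S417.5, KH.L96.34 and KH.C3.435, none of which had more than 27 reads in a library. KH.C3.435 had 11, 12 and 12 reads in CrGFP and 6, 7 and 7 in CrBra, and its counting interval reached 1 in every number.

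In the 21 others the numbers lay far enough apart for the groups to overlap. KH.C8.466, the most abundant of the 30, had 131, 162 and 36 reads in CrGFP and 75, 80 and 25 in CrBra. KH.S1841.1 had 10, 52 and 20 reads in CrGFP and 6, 26 and 12 in CrBra. Number 3 of the first model and number 1 of the second were low under both guides. KH.L149.39 had the smallest mean difference of all 49 members, -0.42, with 73, 142 and 74 reads in CrGFP against 62, 97 and 54 in CrBra. The rest of the 21 held 1 to 141 reads per library.

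**Figure D4:**
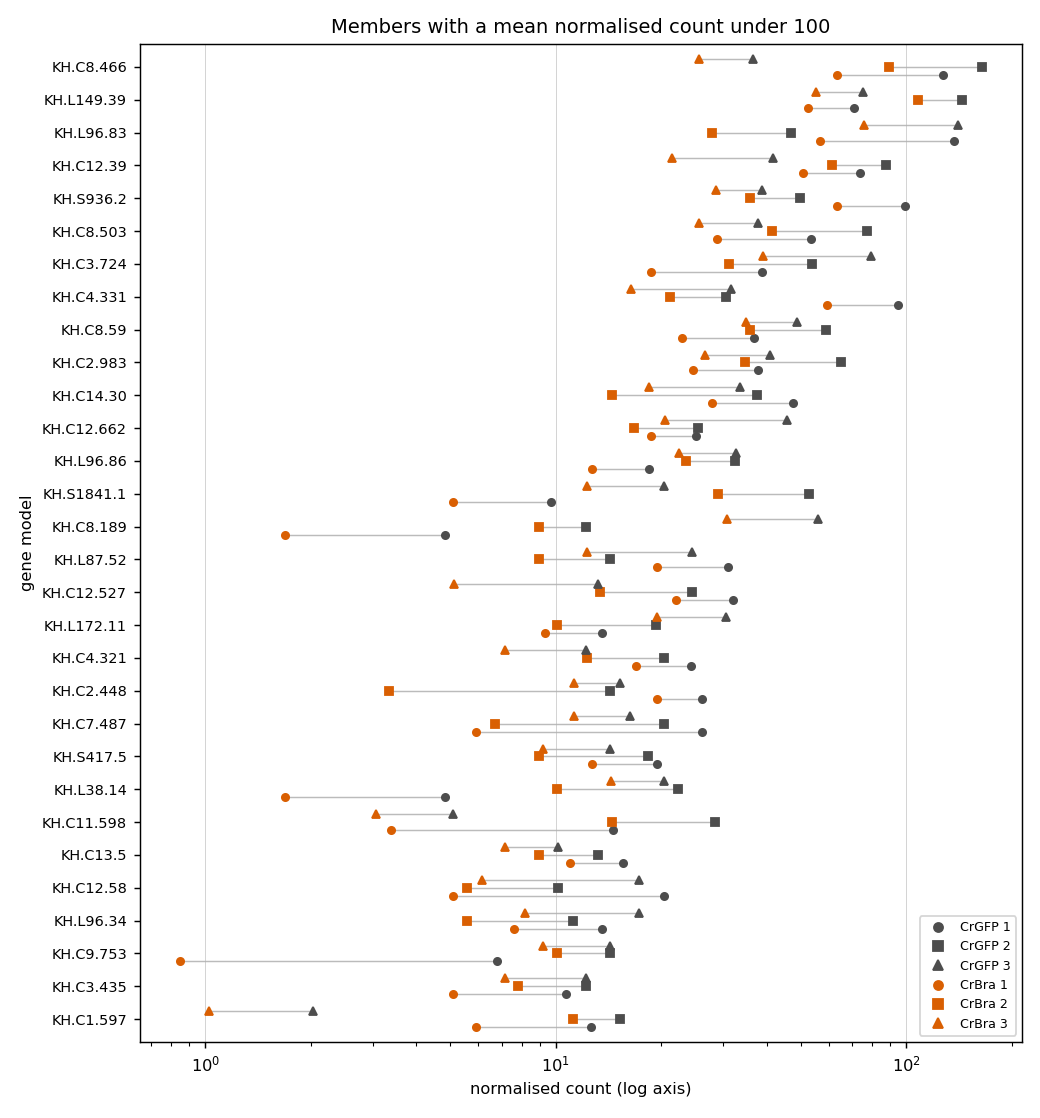
Normalised count (log axis) in each library for the 30 members with a mean under 100, drawn as for the more abundant members. Values reach down to 1 read in KH.C9.753 and KH.C1.597, and in 9 of these models all CrBra values lie below all control values.

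The largest of the 3 differences lay in number 1 in 25 of the 49 members, in number 2 in 12 and in number 3 in 12. Of the 19 members with a mean of 100 or more it lay in number 1 in 13. Of all tested models, 33.7% had their lowest difference in number 1, and of the 32 models past -0.8, 65.6% had it there. The median difference of the members was -0.76, -0.71 and -0.60 in numbers 1, 2 and 3, and it was 0.02, 0.00 and -0.01 over all tested models. KH.S1404.1 had differences of -1.67, -1.50 and -1.75, with the largest in number 3. Among the members, 13 reached -0.8 in none of the numbers, 18 in 1 and 18 in 2.

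The limits cut through a continuous range of values. Nearest to -0.4 on the inner side were KH.C2.448, KH.C8.189 and KH.C9.698, whose least negative differences were -0.41 each. On the outer side were KH.C12.272, KH.C1.669 and KH.L153.65, with -0.40 each, of which KH.C1.669 was abundant, with a mean of 5375. Nearest to -0.8 within the members were KH.C12.115 and KH.C7.261, with -0.77 each, and just past it were KH.C4.72 with -0.87 and KH.C11.259 with -0.88. On the authors' regularized log2 values, which are shrunk towards each model's mean, all 49 members were lower in CrBra in all 3 numbers. These values come from the same counts, so the choice of members all but fixes that direction. The mean differences on the regularized scale ran from -0.73 to -0.05 with a median of -0.18.

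As a description only, since the members were chosen on the same contrast, their calls in fits across all tested models were as follows. Without the replicate number as a block, limma called 0 of the 49 members lower at an adjusted p under 0.05 (0% of all tested models were called lower), 13 had an unadjusted p under 0.05 (0.502% of all tested models), edgeR called 0 and DESeq2 called 1, KH.C7.269 (0.167% of all tested models were called lower). With the replicate number as a block, limma called 15 members (0.385% of all tested models were called lower), edgeR 18 (0.452%) and DESeq2 14 (0.46%). Of these calls, 15, 17 and 14 in the same order were among the 19 members with a mean of 100 or more. Of these 19 models, 13 were called by all 3 tools, and KH.C3.225 and KH.S1075.1 by none. Calls over all tested models were not counted by level or by agreement of the tools, so these counts have no share beside them. Under a mean of 100 the only call was that of KH.L96.83 in edgeR. CrBra and CrGFP values did not overlap in 18 of the 49 members, 9 at each side of 100, and in 1.14% of all tested models CrBra lay wholly below CrGFP.

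Differences between the means of the replicate numbers were not used to choose the members, because every number holds 1 library of each guide. The residual spread in the tests below is that of the differences between guides over the numbers. The limits restrict those differences, so the p-values of members are not wholly free of the choice. In limma's moderated F test over the numbers, with the guide as a covariate, 34 of the 49 members (69.4%) differed among the numbers at an adjusted p under 0.05, and 73.4% of all tested models did. By level the counts were 19 of 30 members under 100 (53.2% of all models of that level), 8 of 11 from 100 to under 1000 (77.4%) and 7 of 8 at 1000 and over (83.9%). The members' shares lay near those of their levels. With edgeR's quasi-likelihood F test on the recovered reads, 33 of the 49 members (73.7% of all tested models) differed.

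Members also spanned wider ranges between numbers than models of the same level did at the median. A range of at least 1 (log2) between the lowest and highest number, with an adjusted p under 0.05 in the same limma test, was found in 24 of the 49 members and in 20.4% of all tested models. It was found in 17 of 30 members under 100 (41.7% of that level), in 3 of 11 from 100 to under 1000 (18.6%) and in 4 of 8 at 1000 and over (5.46%). The last 4 were KH.C9.698, KH.C7.261, KH.C3.225 and KH.S1075.1. The median range of the members in the 3 classes was 1.04, 0.83 and 0.91, beside 0.92, 0.55 and 0.42 for all models of those levels. These classes are broad, and 20 members had a mean under 30. Over all levels the median range was 1.02 in the members and 1.04 in the 26 models of the mirrored rule. It was 0.63 in the 32 models past -0.8. A wide range was thus not particular to the members. No test was made of these counts and medians, and whether a member's spread between numbers bears on its difference between guides was not tested.

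Individual members went in different directions across the numbers. KH.C8.189 had the widest range, 3.42, with 5, 12 and 55 reads in CrGFP and 2, 8 and 30 in CrBra, so that number 3 was highest under both guides (limma F test, adjusted p = 0.000339). KH.C1.597 was the opposite, with 13, 15 and 2 reads in CrGFP and 7, 10 and 1 in CrBra (limma F test, adjusted p = 0.0037). Among abundant members, KH.C9.698 was 1.29 (log2, SE 0.071) higher in number 2 than in number 1, and KH.C13.35 was 1.58 (SE 0.093) higher. KH.C12.115 was -0.91 (SE 0.074) in the same difference, that is, lower in number 2. At the other end, KH.C7.487 with a range of 0.18 and KH.C4.671 with a range of 0.20 did not pass the test (limma F test, adjusted p = 0.924 and 0.197).

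Taking both guides together, number 2 was the highest in 23 of the 49 members, number 1 in 16 and number 3 in 10. Over all tested models these shares were 34.9% for number 2, 35.0% for number 1 and 30.1% for number 3. Number 1 was the lowest in 20 members (35.8% of all tested models), number 3 in 15 (29.95%) and number 2 in 14 (34.3%). Number 3 was lower than number 2 at an adjusted p under 0.05 in limma in 16 members (23.8% of all tested models) and higher in 6 (25%). Calls for the other pairs of numbers were not counted here, so these counts do not set number 3 apart. Of the 19 members with a mean of 100 or more, number 2 was the highest in 11, number 1 in 7 and number 3 in 1. Shares over all tested models of that level were not counted.

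**Figure D5:**
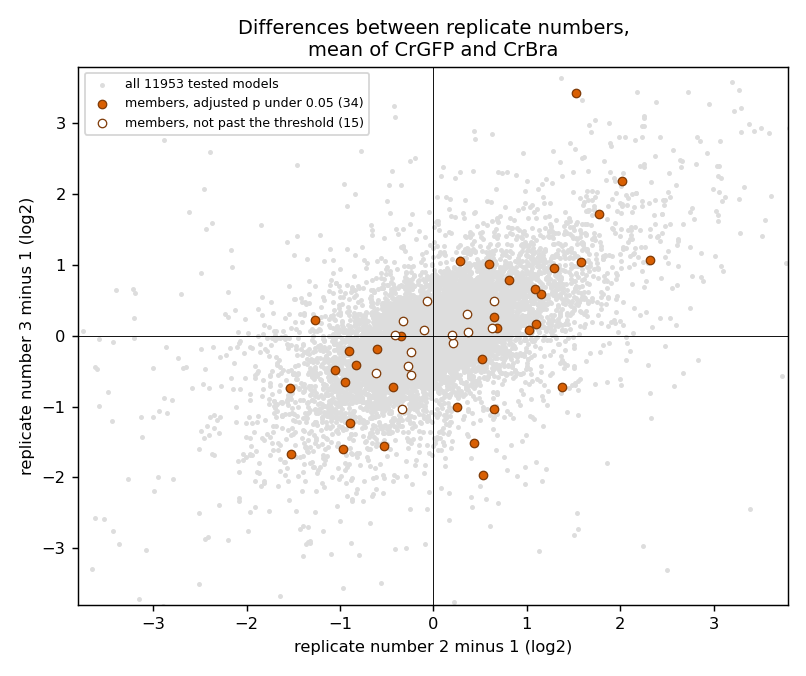
Log2 difference of replicate number 2 minus 1 (horizontal axis) and 3 minus 1 (vertical axis), averaged over CrGFP and CrBra, for all tested models (grey) and the members (filled where the adjusted p of the limma F test was under 0.05, 34 models, and open otherwise, 15 models). The members lie on all sides of the origin, with KH.C8.189 at the top at 3.42 on the vertical axis.

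The letter that follows KH in the identifiers, C, L or S, was spread over the members much as over all tested models. It was C in 35 members (71.4%, and 69.7% of all tested models), L in 9 (18.4% and 19.99%) and S in 5 (10.2% and 10.3%). By the identifier without its last number, 6 members shared KH.C8, 5 shared KH.C12 and 4 shared KH.C7, where 3.02, 2.11 and 2.55 would lie if the members were spread like all tested models. KH.C1, the prefix with the most tested models, held 2 where 4.24 would lie, and KH.C2 held 2 where 3.69 would lie. KH.L96 held 3 members, KH.L96.83, KH.L96.34 and KH.L96.86, among its 98 tested models, where 0.402 would lie by the same reckoning. They differed in level, with means of 80.7, 10.6 and 23.7. The models of 1 prefix are not known here to lie side by side, and no test was made of these counts.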

How the data were processed

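RNA-seq was measured in 6 libraries of whole embryos. Per the file headers, the deposited values of the first block are a signal, the count normalised to library size by the authors, and those of the second block are regularized log2 values of the same counts. The submitters' processing notes name TopHat2 (2.9.8b) and DESeq (1.8.1) and the labels' protocols a stranded mRNA kit. The counting tool was not given in the sources used here, nor were its strand setting or genome build, so overlapping, antisense or near-identical genes cannot be told apart. All 12 columns were matched by name. Divided by the column's smallest step, 100% of each column came out whole within 0.01 reads, and these whole reads were recovered.

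The members and level classes were chosen with earlier results of these data known. Values were taken as log2(value + 1), which makes differences of low models smaller. Models at 10 or above in 3 or more libraries were fitted in limma 3.58.1 (R 4.3.3, mean-variance trend, two-sided, Benjamini-Hochberg over 11953 models). The main fit for the guide had no covariate, and an alternative fit had the replicate number as a block. The fit for the replicate number had the guide as a covariate. edgeR 4.0.16 (TMM, quasi-likelihood) and DESeq2 1.42.0 were run on the recovered reads. The fits with a block took the replicate numbers as pairing the libraries, because all same-number correlations of deviations exceeded 0.1, as given in the report. The guide fits without a block leave this pairing out. The labels do not say what a number shares. Intervals of ratios are exact binomial intervals at 95%. The fitting steps and the rule were checked on simulated data, with the same dispersion for all models and the same guide effect in every number. That check does not speak to members whose differences vary widely between numbers, and its outcome is not given here. Named models were chosen by fixed orderings (mean difference, level, evenness, nearness to a limit, range between numbers), and the other members are named to account for all with a mean of 100 or more, after their values were seen. An exact permutation test of 3 against 3 libraries cannot give a p below 0.1, and one that keeps the 3 pairs cannot give one below 0.25.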

Additional observations from a re-analysis of the deposited data

How the results depend on the processing

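The number of members, 49, depended on the limits and the filter. It was 98 with no filter on low values, 32 with a value of 10 in all 6 libraries, 19 with a value of 100 in at least 3, 88 at a limit of -0.3 and 26 at -0.5. On the regularized log2 values, which are shrunk, the same limits returned 17 models, of which 2 were among the 49. With 1 number left out it was 113 to 144, since fewer conditions have to be met, and 41 to 45 of the 49 were among them. Pseudocounts of 0.5 and 5, TMM and scaling to library totals gave 40 to 51. The 19 members with a mean of 100 or more, a count added after the data were seen, became 30 at a limit of -0.3, 10 at -0.5 and 23 to 41 without 1 number (41 without replicate 3), and 13 to 19 in the other settings. The count of 13 was on the regularized log2 values, and only 2 of those models were among the 19. The count of members that differed among the numbers was 34 of 49 (8772 of 11953 models). With at least 5 CPM, which leaves out 27 members, it was 18 of 22 tested (7520 of 9530 models). Fits without 1 library leave 1 number with 1 library only, so their counts are not given.

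With the replicate block, where limma without it called 0 members, limma called 15 of 49 members (46 of 11953 tested models were called lower). It called 7 of 49 with no filter (27 of 14757 models) and 11 of the 22 members tested with 5 CPM (33 of 9530). With pseudocounts of 0.5 and 5 it called 15 and 16 (45 and 51 of 11953 models). Calls were 18 in edgeR (54 of 11953) and 14 in DESeq2 (55 of 11953). Without number 1, 2 or 3, limma called 18, 6 and 20 members (66, 24 and 88 of 11953 models). Without the block, DESeq2 called 1 member (20 of 11953 models), and edgeR and limma without each library called 0 members and 0 of all tested models. KH.S1404.1, at a log2 fold change of -1.64 with an adjusted p of 0.608 in limma without the block, passed with the replicate block in limma (-1.64, adjusted p = 8.89e-05) and edgeR (-1.65), and in DESeq2 both without the block (-1.66, adjusted p = 6.74e-05) and with it (-1.65, adjusted p = 1.71e-31). It lay between -1.90 and -1.45 without 1 library. What causes these shifts was not tested.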
